A study of Mus musculus with 12 samples.

Results

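The genes described here are 9 genes of cell junctions and of the epithelial-mesenchymal axis, measured in the retinal pigment epithelium (RPE) of WT and rd6 mice. They are *Cldn19*, *Ocln* and *Tjp1* (tight junctions), *Cdh1*, *Cdh2* and *Cdh3* (classical cadherins of adherens junctions), and *Vim*, *Zeb1* and *Snai2* (a mesenchymal filament and transcription factors). They were chosen by gene symbol and known role, not by a threshold on their values, though with earlier results of these data known. They are 9 of the 28591 genes in the deposited table, and all 9 are among the 17768 genes tested, whose mean over the libraries reached 10 normalized counts.

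The study sequenced total RNA from the RPE of 12 mice, 1 mo of age, 6 WT and 6 rd6. The WT mice are labelled wt (C57BL/6J), a pigmented inbred strain. The rd6 mice are labelled Mfrp rd6/rd6, homozygous for a natural mutation of *Mfrp*, which encodes a membrane protein of the RPE, and the methods name the strain Mfrp rd6/J. The methods also say that mice of both sexes were used unless otherwise noted, and the labels do not give the sex of a mouse. Each library held the RPE of both eyes, collected from the eyecup after the anterior segment and the neural retina had been taken off. Whether WT and rd6 mice were littermates is not given in the sources used here, so genotype and colony cannot be told apart. The comparison asks how RPE transcript levels differ when MFRP function is lost.

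The RPE is a single sheet of pigmented epithelial cells that forms the outer blood-retina barrier. Claudins seal the tight junctions between its cells, occludin sits in the same strands, and the scaffold ZO-1 ties both to actin, while cadherins hold neighboring cells together at the adherens junction below. RPE cells that lose contact with their neighbors can leave the epithelial state, and ZEB and SNAIL family factors, which repress epithelial genes such as *Cdh1* through E-box elements, are known to act in that transition.

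All libraries were of like depth, with 29218135 to 33152725 reads on genes in WT and 28907262 to 32336530 in rd6. Values are normalized counts, which are reads divided by the size factor of each library, and a count of 3 reads is worth 2.71 to 3.32 of them. *Mfrp* itself ranged from 30132 to 45442 in WT and from 20442 to 29732 in rd6 and was lower in rd6 (log2 fold change −0.63, limma *q* = 0.00126). The 13 RPE markers summed to between 1101430 and 1625830 normalized counts in WT and between 1207710 and 1554970 in rd6, and no marker of any list was at 0 in all libraries. Markers of other cells were tested in the same way (limma *q* below 0.05, where 11.4% of all tested genes were higher and 11.6% lower). Of 18 microglia or macrophage markers, 17 rose in rd6, as did 9 of 13 endothelial markers. Of 8 melanocyte or Schwann cell markers 5 fell, and their sums of 13123 to 14433 in WT and 8076 to 9033 in rd6 did not overlap. The macroglia sums (57692 to 61319 in WT, 46550 to 52955 in rd6) did not overlap either, though only 1 of 5 macroglia markers was called lower. Called lower were also 4 of 11 rod markers, 3 of 13 RPE markers and 1 of 8 fibroblast markers, the last a share near that of all genes. The sum of 8 keratin and other markers of the ocular surface epithelium ran from 61.2 in WT replicate 3 to 187921 in WT replicate 4, and it was next highest in rd6 replicates 5 (104070) and 1 (59260). In bulk RNA, fewer cells of a type and less RNA per cell cannot be told apart.

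The start regions below are shown for *Ocln*, *Cldn19* and *Tjp1*, the tight junction members for which the RefSeq promoter table (GRCm38.p6, 250 bases before to 50 after each start) has an entry. It matched 4 of the 9 members, *Vim* being the other. *Cdh1*, *Cdh2*, *Cdh3*, *Zeb1* and *Snai2* are not shown. The E-box that ZEB1 and SNAI2 are known to bind was searched as CAGGTG on both strands (CACCTG on the other), and 20.2% of all 32851 windows in the table hold it. Among the 4 members, *Ocln* held it. One match lay 8 bases into the transcript from its first start, and another lay 68 bases before its second start. They are given 5′ to 3′ on the minus strand with the E-box in capitals, at chr13:100552694-100552723, where the match is exonic, and at chr13:100552549-100552578.
Ocln, first E-box: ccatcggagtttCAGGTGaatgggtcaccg
Ocln, second E-box: ctaggggctcggCAGGTGggtcccagcgca

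The windows of *Cldn19* and *Tjp1*, a scarce transcript beside an abundant one, held no E-box. Both held 2 GC boxes (GGGCGG, or CCGCCC on the other strand), the element that SP family factors are known to bind and that 35.7% of all windows hold. The *Cldn19* stretch lies at chr4:119255191-119255410 on the plus strand, 250 to 31 bases before the RefSeq start. The *Tjp1* stretch lies at chr7:65371245-65371494 on the minus strand, the 250 bases before the RefSeq start, which is inside the longer gene span of GENCODE. Neither stretch overlaps an annotated exon. GC boxes are in capitals, and a match of letters is a description of the window and not a bound site.
Cldn19: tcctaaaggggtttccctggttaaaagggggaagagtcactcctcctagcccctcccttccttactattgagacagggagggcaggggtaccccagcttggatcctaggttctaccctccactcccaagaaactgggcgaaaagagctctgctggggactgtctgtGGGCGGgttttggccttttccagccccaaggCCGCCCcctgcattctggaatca
Tjp1: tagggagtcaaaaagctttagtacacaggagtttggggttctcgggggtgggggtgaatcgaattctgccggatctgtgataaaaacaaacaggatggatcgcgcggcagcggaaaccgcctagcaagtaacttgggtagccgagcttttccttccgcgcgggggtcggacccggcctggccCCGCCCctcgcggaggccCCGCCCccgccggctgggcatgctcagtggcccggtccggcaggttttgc

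Per kb of exon, the members spanned a wide range of levels and stood in the same order in both genotypes. P-cadherin (*Cdh3*, chr8:106510891-106557297), known as a main cadherin of the RPE, led with a median of 1592 normalized counts per kb in WT and 1319 in rd6. Vimentin (*Vim*, chr2:13573927-13582826) followed with medians of 1486 and 1286 per kb. The ranges of these leading genes overlapped in each genotype, and with the length of the longest transcript in place of all exons their order was the reverse, as was that of *Ocln* and *Cdh2*. *Tjp1* had medians of 260.2 and 265 per kb in WT and rd6, above all of the *Ocln* values (median 165 and 132 per kb). *Cdh2* (110 and 98.1 per kb) and *Zeb1* (67.1 and 71.9 per kb) came next, with ranges that did not overlap in either genotype. *Cdh1* (54.7 and 60.0 per kb) lay near *Zeb1*, but its own range ran across those of *Zeb1* and *Cdh2*. *Snai2* (8.38 and 18.6 per kb) and *Cldn19* (6.60 and 7.38 per kb) were the lowest, with overlapping ranges.

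Among 17 classical cadherins in the table, *Cdh3* had the highest median per kb, *Cdh2* the fourth and *Cdh1* the seventh in WT. Among 16 claudins, *Cldn19*, known as a barrier claudin of cultured human RPE, ranked 13 in WT by the same measure. The claudin with the highest median in WT was *Cldn1*, at 4803 normalized counts per kb, followed by *Cldn2* at 1611. *Cldn1* was named after its value was seen. *Cdh3* and *Cdh1* lie on the same strand of chromosome 8, with 46053 bases between the end of the former and start of the latter. Between them lie 2 other genes.

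None of the 9 members passed the test between the genotypes (limma, *q* below 0.05 over all genes tested), against 11.4% of all tested genes that were higher in rd6 and 11.6% that were lower. With the added fold limit of the study (0.81 on the log2 scale), these shares were 4.69% and 2.12%, and again no member was among them. Scaling to *Actb* moved the split of called genes from 2024 higher and 2062 lower to 1347 and 484, and under it *Tjp1* had a log2 fold change of 0.016. At an unadjusted *p* below 0.05 there were 2 members, *Ocln* and *Cdh3*, both with lower values in rd6, beside 35.3% of all tested genes. In each of the 9 genes the WT and rd6 libraries overlapped, while in 11.4% of all tested genes they did not. On the reads, edgeR called none of the 9 (22.9% of all genes tested by it) and DESeq2 called *Ocln* (*q* = 0.0482, beside 22.2%). The fitted difference was positive in 3 members and negative in 6, with a median log2 fold change of −0.13 beside 0.0049 over all tested genes. With edgeR and with DESeq2 it was positive in 2 and negative in 7, with medians of −0.23 in both, since *Cldn19* turned.

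**Figure D1:**
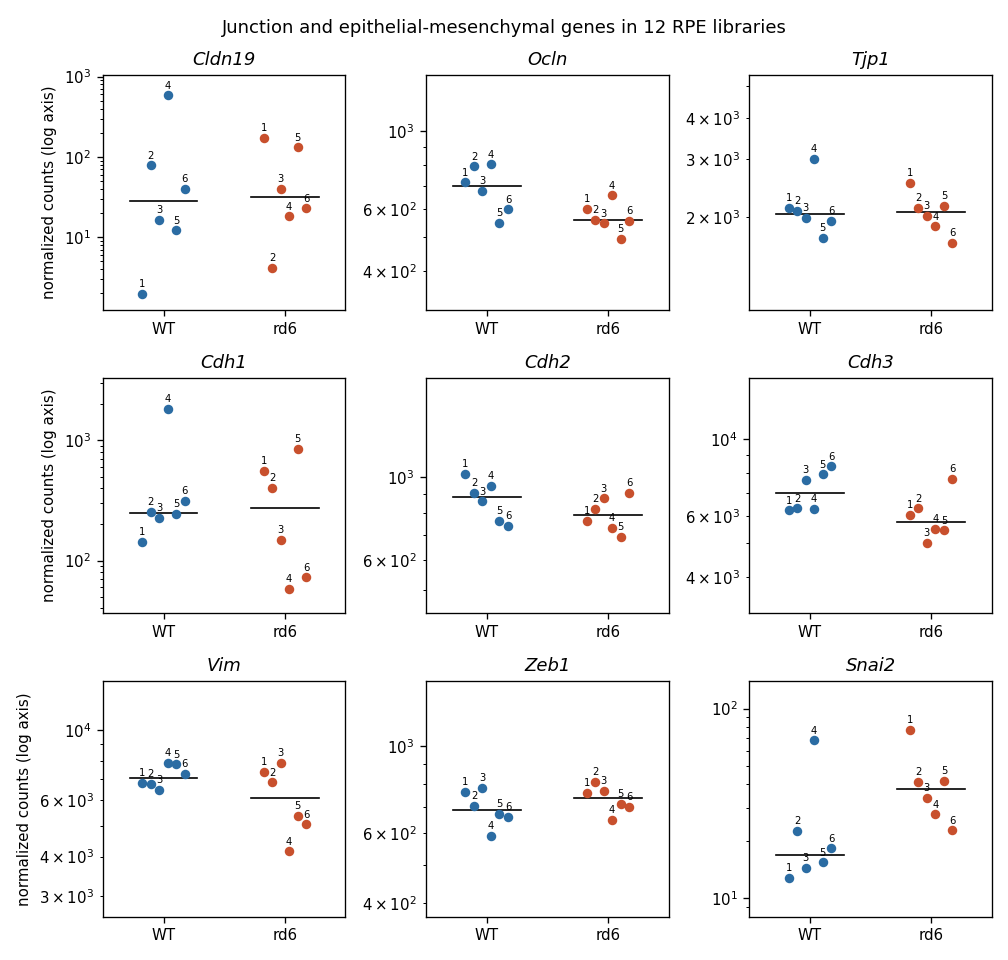
Normalized counts (log axis) of the 9 genes in each of the 6 WT and 6 rd6 libraries, with points numbered by replicate and a line at the median of each genotype. The genotypes overlap in every panel, and WT replicate 4 stands above the other WT libraries in *Cldn19*, *Cdh1* and *Snai2*.

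*Ocln* (chr13:100496507-100552718, minus strand) encodes occludin, a membrane protein of the tight junction strand. It ranged from 547 to 805 normalized counts in WT with a median of 696, and from 494 to 656 in rd6 with a median of 557. WT replicates 1 to 4 were above every rd6 library, while WT replicate 5 was below 4 of the 6 rd6 libraries. The mean was 689 ± 104 in WT and 568 ± 54.8 in rd6 (SD, n = 6 each). The log2 fold change was −0.27 ± 0.10 (SE) with a 95% interval of −0.49 to −0.05, and limma's adjusted *p* of 0.0737 missed the threshold. *Ocln* passed without WT 5 (*q* = 0.0218) or without rd6 4 (*q* = 0.0493). Its log2 fold change was −0.21 when scaled to *Actb* (limma *q* = 0.499). Without WT 4, rd6 1 and rd6 5 together it was −0.19 (limma *q* = 0.23).

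*Tjp1* (chr7:65296165-65527781, minus strand) encodes ZO-1, the scaffold beneath the strands. It had 1726 to 3005 normalized counts in WT (median 2032) and 1662 to 2531 in rd6 (median 2072). The highest library of each genotype was one rich in surface keratins, WT replicate 4 and rd6 replicate 1, and the other 10 lay at 2163 or less. For *Tjp1* the log2 fold change was −0.05 with an interval of −0.32 to 0.23 (limma *q* = 0.822), an interval that lies within the fold limit in both directions. Its sign turned without WT 4 (0.055) or rd6 6 (0.013), and it was −0.11 without rd6 1 or WT 5.

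*Cldn19* (chr4:119255414-119262438, plus strand) encodes claudin 19. It had 1.97 normalized counts, or 2 reads, in WT replicate 1 and 586 in WT replicate 4, with a WT median of 28.1. In rd6 it had between 4.12 (replicate 2) and 173 (replicate 1), with a median of 31.5. Only the libraries WT 4, rd6 1 and rd6 5 exceeded 100 normalized counts, and the other 9 lay at 78.4 or less. Its log2 fold change of 0.13 had an interval of −2.39 to 2.64 (limma *q* = 0.95), so that a change of even several-fold in either direction was not detectable here. The means ran the other way (122 in WT and 65.1 in rd6), and the fitted direction turned in 11 of 23 alternatives, to −0.91 with DESeq2 and −0.90 with edgeR. The spread of its log2 values within genotype was larger than that of 98.7% of all tested genes. An antisense gene that overlaps *Cldn19* in GENCODE had a mean of 1.06 normalized counts.

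Of the cadherins, *Cdh3* came nearest to the threshold. It ranged from 6230 to 8346 normalized counts in WT (median 6981) and from 5028 to 7693 in rd6 (median 5781). In rd6, replicate 6 was the highest and lay above 4 of the 6 WT libraries. Of the other 5 rd6 libraries, replicate 2 lay within the WT range and 4 were below every WT library. The mean was 7124 ± 952 in WT and 6009 ± 943 in rd6 (SD, n = 6 each). Its log2 fold change of −0.25 ± 0.11 (SE) had an interval of −0.48 to −0.01 and an adjusted *p* of 0.119 by limma. Without rd6 6 it was −0.32 and passed (*q* = 0.0314).

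N-cadherin (*Cdh2*, chr18:16588877-16809246, minus strand), the cadherin of neural and mesenchymal cells and also found in RPE, had 740 to 1021 normalized counts in WT (median 884) and 692 to 909 in rd6 (median 792). The genotypes covered nearly the same range. With a log2 fold change of −0.13 and an interval of −0.32 to 0.07, *Cdh2* did not pass (limma *q* = 0.355).

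E-cadherin (*Cdh1*, chr8:106603351-106670246, plus strand), the cadherin of most simple and stratified epithelia, was the most uneven of the cadherins. It had 144 to 1833 normalized counts in WT (median 250.4) and 58.2 to 855 in rd6 (median 274). WT replicate 4 was the highest of all 12 libraries, the other 5 WT libraries lay between 144 and 314, and rd6 was split between 3 libraries at 401 or more and 3 at 148 or less. Its log2 fold change of −0.55 had an interval of −2.15 to 1.05 (limma *q* = 0.635), and the within-genotype spread exceeded that of 97.6% of tested genes. With 1 library left out it ranged from −0.93 (without rd6 5) to −0.05 (without WT 4), and it was −0.16 without rd6 4 and −0.22 without rd6 6, with no call.

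*Vim* encodes the intermediate filament protein of mesenchymal cells, which RPE and glia also make. It ranged from 6491 to 7883 normalized counts in WT (median 7046) and from 4153 to 7859 in rd6 (median 6098). The 6 WT libraries lay close together. In rd6, replicates 4, 5 and 6 (4153, 5360 and 5051) were below every WT library and replicates 1, 2 and 3 lay within the WT range. For *Vim* the log2 fold change was −0.26 with an interval of −0.57 to 0.04 (limma *q* = 0.196), and it was −0.16 without rd6 4.

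ZEB1 and SNAI2 (SLUG) are transcription factors of the epithelial-mesenchymal transition. *Zeb1* (chr18:5591860-5775467, plus strand) was the steadiest member, with 591 to 782 normalized counts in WT (median 689) and 650.2 to 809 in rd6 (median 738). Its log2 fold change was 0.08 with an interval of −0.09 to 0.24 (limma *q* = 0.492), and it was 0.034 without WT 4. A transcript on the opposite strand that overlaps the span of *Zeb1* had a mean of 31.4 normalized counts. The methods name standard parameters of Rsubread, which by default does not count by strand. In any stretch that exons of both share, reads could therefore not be told apart by strand, and whether exons are shared was not tested.

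*Snai2* (chr16:14705852-14709385, plus strand) was scarce, with 12.8 to 68.0 normalized counts in WT (median 16.9) and 22.9 to 77.5 in rd6 (median 37.6). All 6 rd6 libraries were above 5 of the 6 WT libraries, and WT replicate 4 was above all rd6 libraries but replicate 1. The lowest rd6 library, replicate 6, had 23 reads and WT replicate 2 had 22, a gap within counting error. The difference of 0.82 ± 0.39 (SE) on the log2 scale had an interval of −0.03 to 1.67 and did not pass the test (limma *q* = 0.158). Without WT replicate 4 it was 1.15 with *q* = 0.0115, so that this library decided the call.

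**Figure D2:**
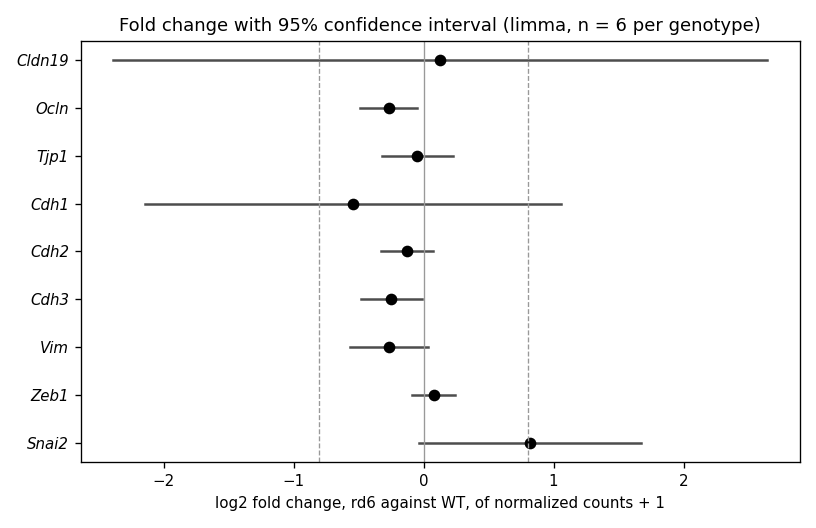
Log2 fold change of rd6 against WT for each of the 9 genes (points) with its 95% confidence interval (lines), from limma over 6 libraries per genotype; dashed lines mark the fold limit of 0.81 on the log2 scale in either direction. The intervals of *Cldn19* and *Cdh1* reach past it on both sides, whereas those of *Ocln*, *Tjp1*, *Cdh2*, *Cdh3*, *Vim* and *Zeb1* stay inside.

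Within-library ratios, which do not depend on the scaling of libraries, were compared for 9 pairs of members by a two-sided exact permutation test over all 924 assignments of 6 and 6 libraries (smallest possible *p* = 0.00216). None passed after adjustment over the 9 ratios, and 1 had an unadjusted *p* below 0.05. The cadherin ratios *Cdh1*/*Cdh2*, *Cdh3*/*Cdh2* and *Cdh1*/*Cdh3* differed by −0.42, −0.12 and −0.30 on the log2 scale, with exact *p* of 0.626, 0.483 and 0.736. Without WT 4 the ratios *Cdh1*/*Cdh2* and *Cdh1*/*Cdh3* turned to 0.053 and 0.24, the latter was also positive without rd6 4 (0.065) or rd6 6 (0.098), and *Cdh3*/*Cdh2* was −0.029 without WT 6. Of the tight junction ratios, *Ocln*/*Tjp1* had a difference of −0.22 (exact *p* = 0.11). The log2 ratio *Snai2*/*Cdh1* was the nearest to the threshold, with a mean of −3.89 ± 0.49 in WT and −2.53 ± 1.19 in rd6 (SD, n = 6 each), a difference of 1.36 (exact *p* = 0.0303, adjusted *p* = 0.273). Without rd6 5 it was 1.72 and passed the exact test (adjusted *p* = 0.0195). The other 4 ratios had exact *p* from 0.201 to 0.896.

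Some of the members moved with the ocular surface markers across libraries. With genotype kept as a term, the slope of the log2 level on the log2 marker sum was estimated for all 17768 genes by limma, a model added after the data had been seen. In 6.57% of all genes the slope was positive at *q* below 0.05 and in 1.26% it was negative. It was positive in 4 of the 9 members, *Cdh1*, *Snai2*, *Tjp1* and *Cldn19*. No member had a negative slope that passed, nor one at an unadjusted *p* below 0.05 (0 of 9, beside 10% of all genes). No member is on the marker list itself.

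The *Cdh1* slope was 0.34 ± 0.05 (SE, *q* = 0.00162), and it passed in all 12 fits that left out a single library. Without the 2 libraries farthest from the median of the markers, WT 3 and WT 4, it was 0.40 (*q* = 0.0027). The *Snai2* slope of 0.17 (*q* = 0.00748), the *Tjp1* slope of 0.051 (*q* = 0.0237) and the *Cldn19* slope of 0.45 (*q* = 0.0359) rested on WT replicate 4, without which *q* was 0.198, 0.42 and 0.471. The *Tjp1* call was also lost without rd6 1 or rd6 6, and the *Cldn19* call without WT 5, rd6 1, rd6 4 or rd6 5, and both and *Snai2* were lost without WT 3 and WT 4 together. The *Cldn19* value of rd6 replicate 2 was low (4.12) at a marker sum of 19696. The slopes of *Ocln*, *Cdh2*, *Cdh3*, *Vim* and *Zeb1* lay between −0.018 and 0.03 and none passed.

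**Figure D3:**
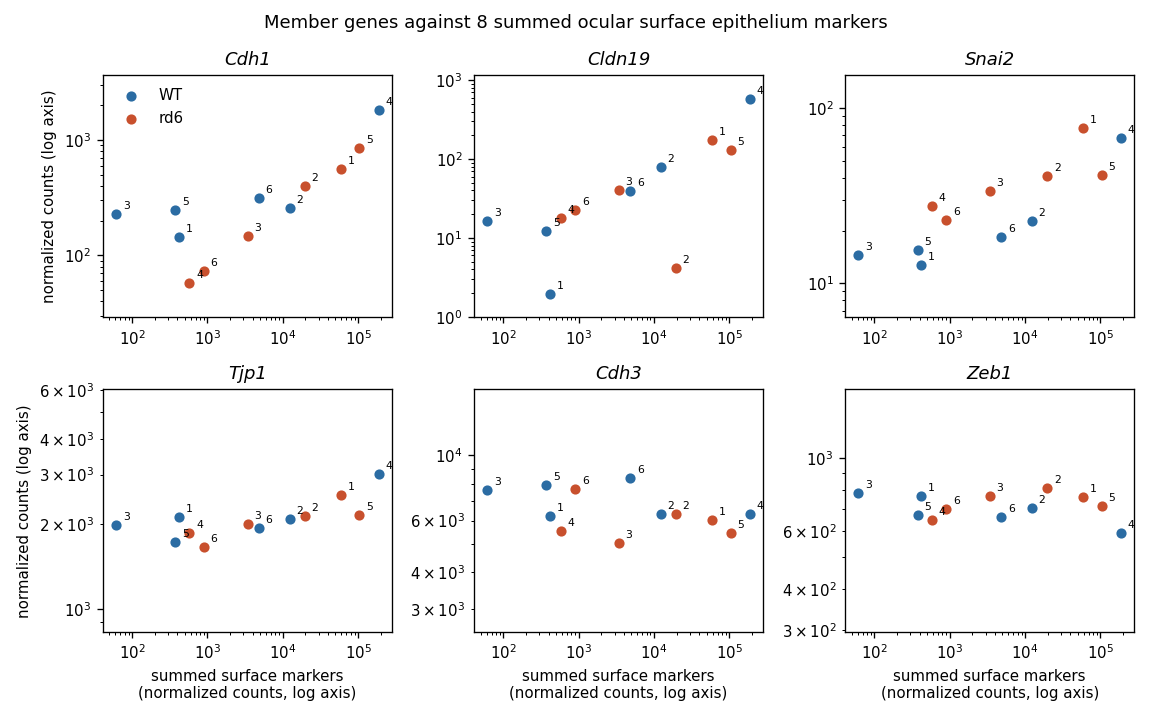
Normalized counts of 6 of the genes (y, log axis) against the sum of 8 ocular surface epithelium markers (x, normalized counts, log axis) in the 12 libraries, numbered by replicate. *Cdh1* is highest in the 3 libraries with the highest sums (WT 4, rd6 5 and rd6 1), and the slopes of *Cdh3* and *Zeb1* did not pass the test.

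The comparison of the genotypes was repeated in 2 ways added after the data had been seen. Without the 3 keratin-rich libraries (WT 4, rd6 1 and rd6 5), *Snai2* was higher in rd6 with a log2 fold change of 0.86 (limma *q* = 0.0295), the 1 member called beside 22.8% of all genes tested in that fit. With the log2 marker sum as a covariate, *Cdh1* was lower in rd6 by −1.17 (*q* = 0.0424), again 1 member beside 23.5% of all genes, and *Snai2* had 0.50 with *q* = 0.147. The log2 fold change of *Cdh1* without the 3 libraries was −0.86 (*q* = 0.227). In which cells the *Cdh1* and *Snai2* reads arose was not tested.

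*Vim* was set against 8 fibroblast markers in the same way. The summed markers lay between 12351 and 18377 normalized counts in WT and between 15832 and 17848 in rd6 replicates 1 to 3, but at 7486, 6539 and 9241 in rd6 replicates 4, 5 and 6, which are also the 3 libraries with the lowest *Vim*. The slope of *Vim* on these markers was 0.46 ± 0.10 (SE) with a limma *q* of 0.0502, just over the threshold, where 1.04% of all genes had a positive slope that passed. It ranged from 0.37 without rd6 replicate 4 to 0.60 without rd6 replicate 5. It passed in 2 of the 12 fits, those without WT 4 and without rd6 5 (*q* = 0.0205 to 0.22 over the 12), and without rd6 4 and rd6 5 together it was 0.50 (*q* = 0.413). Apart from *Vim*, the other 8 members had *q* of 0.769 or more on these markers, and the part of fibroblasts in the *Vim* values was not tested.

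**Figure D4:**
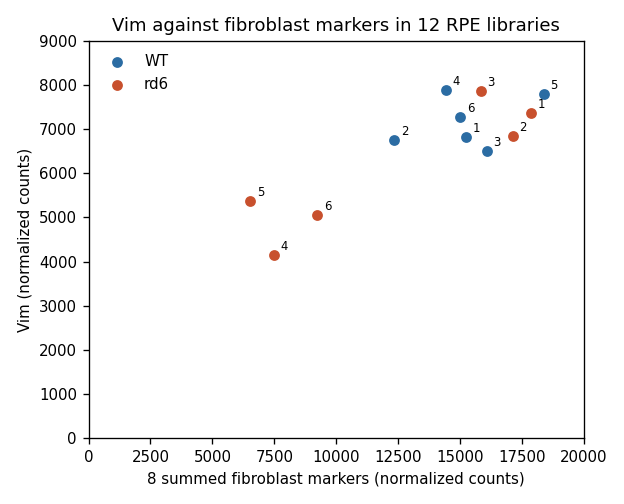
*Vim* (normalized counts, y) against the sum of 8 fibroblast markers (normalized counts, x) in the 6 WT and 6 rd6 libraries, numbered by replicate. Libraries rd6 4, 5 and 6 lie apart from the other 9, with the lowest values on both axes.

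The 2 genes with the most similar profile over the 12 libraries, after removing the genotype means from the log2 values, were found for each member among 17767 others. *Cdh1* was most like *Ly6a* (r = 0.990) and *Baiap2* (0.987), *Tjp1* was most like *Zfp703* (0.982) and *Rps6ka3* (0.981), and *Cldn19* was most like *Gli3* (0.982) and *Shmt1* (0.974). *Snai2* went with *Dtx3l* (0.963) and *Chrdl1* (0.958), and *Ocln* with *Gm5117* (0.959) and *Gm9923* (0.936). *Vim* was most like *Fam20a* (0.946) and *Col12a1* (0.946), the latter a fibril-associated collagen, and *Cdh3* was most like *Plin2* (0.943) and *Lalba* (0.936). For *Cdh2* they were *Ccdc114* (0.935) and *Gm37019* (0.898) and for *Zeb1* they were *Zfp560* (0.868) and *Ppp1r16b* (0.863). All points share their libraries, so these are descriptions of 12 libraries. Among the 36 pairs of members, r ran from −0.56 (*Cldn19* and *Zeb1*) to 0.92 (*Tjp1* and *Snai2*), with 19 positive and a median of 0.073.

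Some other genes of the same pathways, in lists chosen with earlier results of these data known, passed the test. Of 35 tested tight junction genes besides the members, 4 were higher and 11 lower in rd6 at *q* below 0.05 (11.4% and 31.4%, beside 11.4% and 11.6% of all tested genes), with a median log2 fold change of −0.06. Scaled to *Actb*, 7 of them passed in all, beside 10.3% of all tested genes. Cingulin (*Cgn*), a cytoplasmic partner of ZO-1, fell from a mean of 1743 ± 407 in WT to 803 ± 85.4 in rd6 (normalized counts, SD, n = 6, log2 fold change −1.09, limma *q* = 6.79e-05). *Cldn2*, a claudin that forms cation pores, fell from 5462 ± 359 to 2877 ± 679 (−0.96, *q* = 0.000385), and *Cldn10*, another pore-forming claudin, from 441 ± 48.3 to 229 ± 76.3 (−0.99, *q* = 0.00116). In each of these 3 genes all rd6 libraries were below all WT libraries, and the part of the cells whose markers also fell was not tested.

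In the other direction, *Cldn5* rose from 536 ± 154 to 1202 ± 409 normalized counts (log2 fold change 1.14, limma *q* = 0.00572) and *Esam* from 484 ± 131 to 911 ± 304 (0.88, *q* = 0.0149). *Cldn5* encodes the claudin of vascular endothelium and *Esam* an endothelial adhesion molecule, and both are also on the list of 13 endothelial markers. Those markers summed to between 9550 and 18339 in WT and between 14476 and 33840 in rd6. The part of endothelial cells in these rises was not tested.

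Of 19 adherens junction genes, 1 was higher and 2 were lower (5.26% and 10.5%, beside 11.4% and 11.6% of all tested genes, median −0.00). The number called was 5 without WT 4 and 6 without the 3 keratin-rich libraries, a fit that called 22.8% of all genes. It was 1 when scaled to *Actb* (beside 10.3% of all tested genes) and as low as 2 with 1 library left out. *Plekha7*, which links p120 catenin to microtubules at the adherens junction, went from 4515 ± 436 normalized counts down to 2525 ± 302 (log2 fold change −0.84, limma *q* = 1.96e-05) with no overlap of the genotypes. *Actn1* (an actin cross-linker) rose by 0.47 on the log2 scale (*q* = 0.0272), a call lost without any 1 of WT 1, 2 and 3 or rd6 1, 2, 3 and 4. Of 10 tested classical cadherins other than the members, 1 was higher and 3 were lower (10% and 30%, beside 11.4% and 11.6%). *Cdh10* (114 ± 27.5 to 38.4 ± 9.70), *Cdh9* (203 ± 14.8 to 90.03 ± 18.5) and *Cdh11* (629 ± 83.7 to 301 ± 104) fell with log2 fold changes of −1.57, −1.19 and −1.13 (*q* = 0.000172, 3.53e-05 and 0.0021). The melanocyte or Schwann cell and macroglia sums were also lower in rd6, as were the fibroblast sums of rd6 4 to 6, and the part of those cells was not tested. *Cdh5*, the cadherin of endothelium and also on that marker list, rose by 0.82 (*q* = 0.0339), a call lost without any 1 of WT 1, 2 and 6 or rd6 1, 2, 3 and 6.

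Of 13 transcription factors of the epithelial-mesenchymal transition besides *Zeb1* and *Snai2*, 1 was higher and 1 lower (7.69% each, beside 11.4% and 11.6% of all tested genes, median −0.03). *Lef1*, a nuclear partner of beta-catenin, rose from 39.3 ± 13.6 to 101 ± 30.01 normalized counts (log2 fold change 1.35, limma *q* = 0.00186), with all rd6 libraries above all WT libraries. *Sox9* had a log2 fold change of −0.34 (*q* = 0.0414) and, with 1 library left out, passed where that was WT 4, rd6 2 or rd6 4 and not otherwise. None of 14 genes of the epithelial program, a list of *Grhl*, *Ovol*, *Esrp*, keratin and desmosome genes, passed in limma (median 0.68), against 11.4% and 11.6% of all tested genes. The count was also 0 at an unadjusted *p* below 0.05 (35.3% of all genes) and with edgeR and DESeq2 (22.9% and 22.2%), and it was 1 without WT 4. At a median of 0.68, a count of 0 does not show that these genes were unchanged. The sum of ocular surface markers ran from 61.2 to 187921 over the libraries, and the part of those cells was not tested.

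Of 27 genes of mesenchymal structure, 5 were higher and none lower in limma (18.5% and 0%, beside 11.4% and 11.6% of all tested genes, median −0.04), and without WT 4 the number called was 9. At an unadjusted *p* below 0.05, 7 were higher and 4 lower, beside 35.3% of all genes in either direction, and edgeR and DESeq2 called 6 and 7 higher and 0 lower. Tenascin C (*Tnc*), a matrix protein, rose from 223 ± 50.2 to 1059 ± 84.5 normalized counts (log2 fold change 2.27, limma *q* = 2.32e-07). Periostin (*Postn*), another matrix protein, rose from 125 ± 32.3 to 373 ± 132 (1.53, *q* = 0.000548). Desmin (*Des*), the filament protein of muscle and mural cells, rose from 1217 ± 440 to 2295 ± 205 (1.03, *q* = 0.0132), a call lost without the 3 keratin-rich libraries (*q* = 0.0539). In these 3 genes the genotypes did not overlap. *Des* is also on the list of 9 mural cell markers, where it was the 1 marker that rose.

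Of 16 genes of the TGF-β pathway, 4 were higher and 1 lower (25.0% and 6.25%, beside 11.4% and 11.6% of all tested genes, median 0.15), and without WT 4 the number called was 8 in place of 5. The ligand genes *Tgfb2* (652 ± 423 to 1350 ± 368 normalized counts) and *Tgfb1* (225 ± 43.1 to 399 ± 70.5) rose by 1.19 and 0.83 on the log2 scale (limma *q* = 0.0136 and 0.00152). The genotypes overlapped in *Tgfb2* and did not overlap in *Tgfb1*. Markers of microglia or macrophages and of endothelium also rose in rd6, and the part of those cells in these rises was not tested. *Tgfb2* also had a positive slope on the ocular surface markers (0.14, *q* = 0.00477). *Smad3*, a signal transducer of the pathway, had a log2 fold change of −0.29 (*q* = 0.00431). Of 9 genes of intermediate filaments and their partners besides *Vim*, 2 were higher and 1 lower (22.2% and 11.1%, beside 11.4% and 11.6%, median 0.32). The gene that fell was nestin, *Nes* (−0.85, *q* = 0.0429), a call held, with 1 library left out, where that was WT 6, rd6 1, rd6 4 or rd6 5, and *Des* was among the genes that rose.

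**Figure D5:**
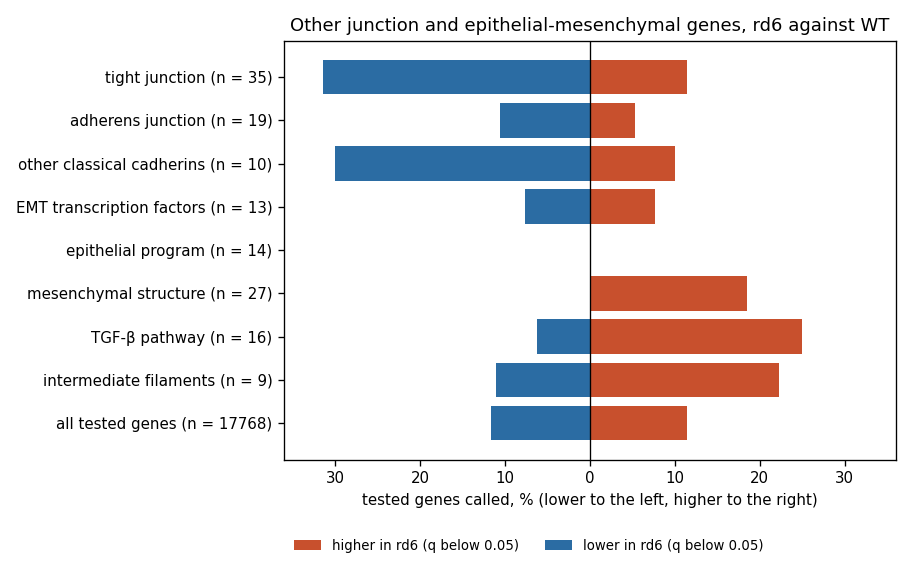
Share of the tested genes of each list (x, %) that were higher (to the right) or lower (to the left) in rd6 at limma *q* below 0.05, with the same shares over all tested genes in the bottom bar; n is the number tested. Tight junction genes were lower in 31.4% and all tested genes in 11.6%. No gene of the epithelial program passed in either direction, though their median log2 fold change was 0.68.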

How the data were processed

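RPE libraries of 6 WT and 6 rd6 mice were compared. Libraries were stranded, from total RNA, with paired ends. The authors aligned reads to mm10, quantified them with Rsubread with standard parameters and normalized them with DESeq2, and no versions are given in the sources used here. The deposited signal is the gene read count divided by the size factor of the library (normalized count), with its mean over the libraries. The authors also deposited their own DESeq2 comparison: a log2 fold change, its standard error and Wald statistic (score columns), and a p-value with its adjusted p-value. None of those columns was used. After 5 repeated entries were dropped, 28591 genes remained. All deposited values were whole multiples of 1 read (within 0.001), so reads were recovered, and the floor of 3 reads covers counting error only.

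The main test was limma 3.58.1 (R 4.3.3, lmFit and eBayes with trend) on log2(normalized count + 1) of genes whose mean reached 10, with genotype as the only term and Benjamini-Hochberg adjustment (*q*) over all 17768 genes. A fold change on this scale understates that of low genes. The recovered reads were tested with edgeR 4.0.16 and with DESeq2 1.42.0. Ratios were compared by exact permutation. Further alternatives were pseudocounts of 0.1 and 10, no low-value filter, at least 10 in every library, TMM rescaling, and upper quartile scaling in edgeR. Others were scaling to *Actb*, a replicate block, leaving out each library, and those on surface markers, which were added after seeing the data. The study calls the replicates independent, each pooling both eyes, and *p* measures the spread between them.

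The members and lists were chosen with earlier results of these data known. All members were named. In each list the called genes with the largest rise and fall, and called genes past the fold limit, were named, and for each member the 2 genes most like it. Coordinates are from GENCODE M21 (GRCm38), and promoter sequences are from RefSeq (GRCm38.p6).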

Additional observations from a re-analysis of the deposited data

Results flagged for a closer look

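Each gene and ratio was checked in each genotype for a library that stands far from the other 5 (a gap past Dixon's 95% limit), over 36 groups of 6. In independent groups of normally distributed values, chance picks out about 1 in 20. The counts checked here were not on a log scale and the ratios reuse the member genes, so the 8 groups picked out cannot be set against that rate. WT replicate 4 stood above the other WT libraries in *Cldn19* (586 normalized counts, next 78.4), *Tjp1* (3005, next 2126), *Cdh1* (1833, next 314) and *Snai2* (68.0, next 22.7). The same library stood apart in the log2 ratios *Cdh1*/*Cdh3* (−1.78, next −4.63) and *Zeb1*/*Cdh1* (−1.63, next 1.07). It is also the library with the highest sum of ocular surface markers (187921), and the part of those cells in its values was not tested. *Snai2* in rd6 replicate 1 (77.5, next 41.5) and the log2 ratio *Cdh3*/*Cdh2* in rd6 replicate 3 (2.52, next 2.91) were the others.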

How the results depend on the processing

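The 95% intervals stayed inside the fold limit for 6 members but reached past it for *Cldn19*, *Cdh1* and *Snai2*. *Cldn19* had no value under the limit of at least 10 in every library, where it is filtered out. Scaling to *Actb* gave 1347 genes higher and 484 lower (73.6% higher) against 2024 and 2062 (49.5%), with the median of all genes at 0.067. In edgeR, upper quartile scaling gave 2374 and 1583 (60.0%, median 0.039) against 1981 and 2085 with TMM (48.7%, median 8.4e-05). The number of members past *q* of 0.05, 0 as reported, was 1 with DESeq2, with the replicate block, without the 3 keratin-rich libraries and with the surface covariate, and 0 to 1 with each library left out in turn. The log2 fold change of *Cldn19* turned to −0.079 without the 3 keratin-rich libraries and −0.91 with DESeq2. With edgeR it was −0.90, and −0.85 with upper quartile scaling in edgeR. It was −0.02 with a pseudocount of 10 and −0.69 with the covariate, and leaving out 1 library gave −0.57 (WT 1) to 0.96 (WT 4). *Ocln* passed at −0.28 with DESeq2 (*q* = 0.0482) and at −0.27 with the replicate block (*q* = 0.0334). With 1 library left out it ranged from −0.33 to −0.22 and passed without WT 5 (*q* = 0.0218) or rd6 4 (*q* = 0.0493). *Tjp1* was 0.016 when scaled to *Actb* and −0.11 to 0.055 with 1 library left out. *Cdh1* passed at −1.17 with the covariate (*q* = 0.0424) and ranged from −0.93 to −0.05 with 1 library left out. The same ranges were −0.17 to −0.079 for *Cdh2*, −0.34 to −0.16 for *Vim* and 0.034 to 0.11 for *Zeb1*, with no call. *Cdh3* ranged from −0.32 (without rd6 6, *q* = 0.0314) to −0.20. *Snai2* passed at 0.86 without the 3 libraries (*q* = 0.0295) and ranged from 0.61 (without rd6 1) to 1.15 (without WT 4, *q* = 0.0115). Same-numbered libraries did not deviate together (correlations −0.74 to 0.31), so the numbers were not taken as pairs. The replicate block gave 1453 genes higher and 1489 lower and changed no other member's call. Of the named list genes, *Esam*, *Actn1*, *Cdh5*, *Sox9*, *Tgfb2* and *Nes* did not pass with the block. Counts of list genes past *q* of 0.05 moved as follows. Tight junction genes numbered 7 when scaled to *Actb* (15 as reported). Adherens junction genes numbered 6 without the 3 libraries, 1 when scaled to *Actb*, and 2 to 5 with 1 library left out (3 as reported). Transition factors numbered 1 with no filter, the block, *Actb* scaling or the covariate, and 1 to 2 with 1 library left out (2 as reported). In edgeR they numbered 1 with upper quartile scaling and 2 with TMM. The epithelial program had 0 to 1 with 1 library left out. Mesenchymal genes numbered 9 without the 3 libraries and 5 to 9 with 1 left out (5 as reported). TGF-β genes numbered 3 with the block and 5 to 8 with 1 library left out (5 as reported). Of the ratios, *Cldn19*/*Tjp1* differed by −0.036 without the 3 libraries and by −0.52 to 0.90 with 1 left out. The ranges with 1 library left out were −0.85 to 0.053 for *Cdh1*/*Cdh2*, −0.21 to −0.029 for *Cdh3*/*Cdh2*, −0.29 to −0.17 for *Ocln*/*Tjp1*, −0.30 to −0.13 for *Vim*/*Tjp1*, 0.081 to 1.02 for *Zeb1*/*Cdh1*, −0.71 to 0.24 for *Cdh1*/*Cdh3*, −0.31 to 1.18 for *Cldn19*/*Ocln* and 1.07 to 1.72 for *Snai2*/*Cdh1* (adjusted *p* = 0.0195 without rd6 5). Without the 2 libraries farthest from the median, slopes on surface markers were 0.42 for *Cldn19*, 0.045 for *Tjp1* and 0.14 for *Snai2*, none past the threshold, −0.0038 for *Ocln* and 0.011 for *Zeb1*. With 1 library left out they ranged from 0.34 to 0.53 for *Cldn19*, −0.0050 to 0.020 for *Ocln*, 0.035 to 0.061 for *Tjp1*, −0.017 to 0.0033 for *Cdh2*, −0.020 to 0.0014 for *Zeb1* and 0.12 to 0.19 for *Snai2*. The slope of *Vim* on fibroblast markers ranged from 0.37 to 0.60. By the longest transcript, mean levels per kb in WT and rd6 were 180.3 and 164.9 for *Cdh2*, 2450 and 2086 for *Vim* and 120.01 and 127 for *Zeb1*. The causes of these changes were not tested.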
